A study of Mus musculus with 3 samples.

Results

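To describe how genes of the DNA replication and cell division machinery were expressed in the primary germ layers, all probe sets of 48 such genes were read across the 3 arrays of the series. The genes were listed by symbol and kept apart by role: 12 for origin licensing and the replicative helicase, 8 for the replication fork and nucleotide supply, 10 regulators of G1 and S phase, 12 genes of G2 and mitosis, and 6 inhibitors and brakes. Of these, 46 had at least 1 probe set among the 18193 named genes of the table, with 111 probe sets of 45037 in all. Ccnb1 and Trp53 were not analysed here. The arrays were Affymetrix Mouse Genome 430 2.0, which read each transcript with 1 or more probe sets, each made up of short oligonucleotides. The endoderm, the mesoderm and the epiblast came from ICR mouse embryos (an outbred strain) at embryonic day 7.5, the stage of gastrulation, and the epiblast was dissected together with the neuroectoderm and primitive streak that it gives rise to. Each layer had 1 array made from 100 ng of RNA, and how many embryos were pooled per array was not stated in the labels or methods. With 1 array per layer there was no replicate error and no test, so every difference below compares 3 hybridisations.

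Replication origins are licensed in G1, when the origin recognition complex with Cdc6 and Cdt1 loads the Mcm2 to Mcm7 ring onto DNA. In S phase the ring is activated by Cdc45, the GINS complex and Mcm10, and polymerases copy the DNA behind it with the help of the Pcna clamp and its Rfc loader. Cyclin D with Cdk4 or Cdk6 and cyclin E with Cdk2 drive entry into S phase by phosphorylating Rb family proteins, which release E2F factors, and cyclin A and B with Cdk1 drive mitosis. The mouse epiblast around gastrulation is known for very rapid cell cycles with short gap phases.

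Each layer had the highest sum of its own markers, and all 6 markers of each layer were highest in that layer. The endoderm markers were Sox17, Foxa2, Apob, Afp, Ttr and Cubn. For mesoderm they were Kdr, Foxf1, Snai2, Mesp1, Hand2 and Foxc2, and for epiblast Sox2, Nanog, Pou3f1, Pou5f1, Eras and Sox3. The intensities of 6 endoderm markers had a sum of 36755 in the endoderm, against 414 in the mesoderm and 440.0 in the epiblast. Those of 6 mesoderm markers had sums of 796, 9205 and 1202 in the same layers, and those of 6 epiblast markers 3325, 2627 and 14622. The epiblast markers did not all separate the layers well. Eras stood at 1978 in endoderm, 95.8 in mesoderm and 2610 in epiblast, only 1.32-fold lower in endoderm than in epiblast. Pou5f1 had 1019, 2159 and 5735. Among 4 trophoblast markers with a probe set, Cdx2 and Ascl2 were above the floor, with sums over the list of 1514 in endoderm, 1179 in mesoderm and 2094 in epiblast. Cdx2 made up most of these sums, at 1283, 932 and 1817, while Tpbpa and Elf5 were below the floor in all 3 layers. Whether the Cdx2 signal came from trophoblast or from the layers themselves was not tested. None of 5 blood and decidua markers was above the floor, with values of at most 48.8, 46.4 and 50.5. The floor, an intensity of 80.6, was the median over the whole table. In such bulk tissue, fewer cells of a type and less RNA per cell cannot be told apart. Over all probe sets the endoderm, mesoderm and epiblast arrays had medians of 79.9, 79.9 and 82.2 and upper quartiles of 319, 276 and 269.

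All 46 genes were above the floor in all 3 layers, as were 96 of their probe sets in at least 1 layer. Each gene was represented by its probe set with the highest mean log2 value. Few members differed strongly between layers. A gene was counted as higher or lower where the difference was at least 2-fold and the higher layer of the pair was above the floor. In endoderm against epiblast, 0 of 46 members were higher and 0 were lower by this measure, against 12.6% and 3.98% of all genes tested. In mesoderm against epiblast, 1 member was higher (Cdk6) and 1 was lower (Cdkn1a), against 3.48% and 3.23%. In endoderm against mesoderm, 0 members were higher and 3 were lower (Ccnd1, Ccnd2 and Cdk6), against 11.7% and 3.91%. These 4 genes were the members whose range over the layers reached 2-fold, which 21.5% of all genes did.

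**Figure D1:**
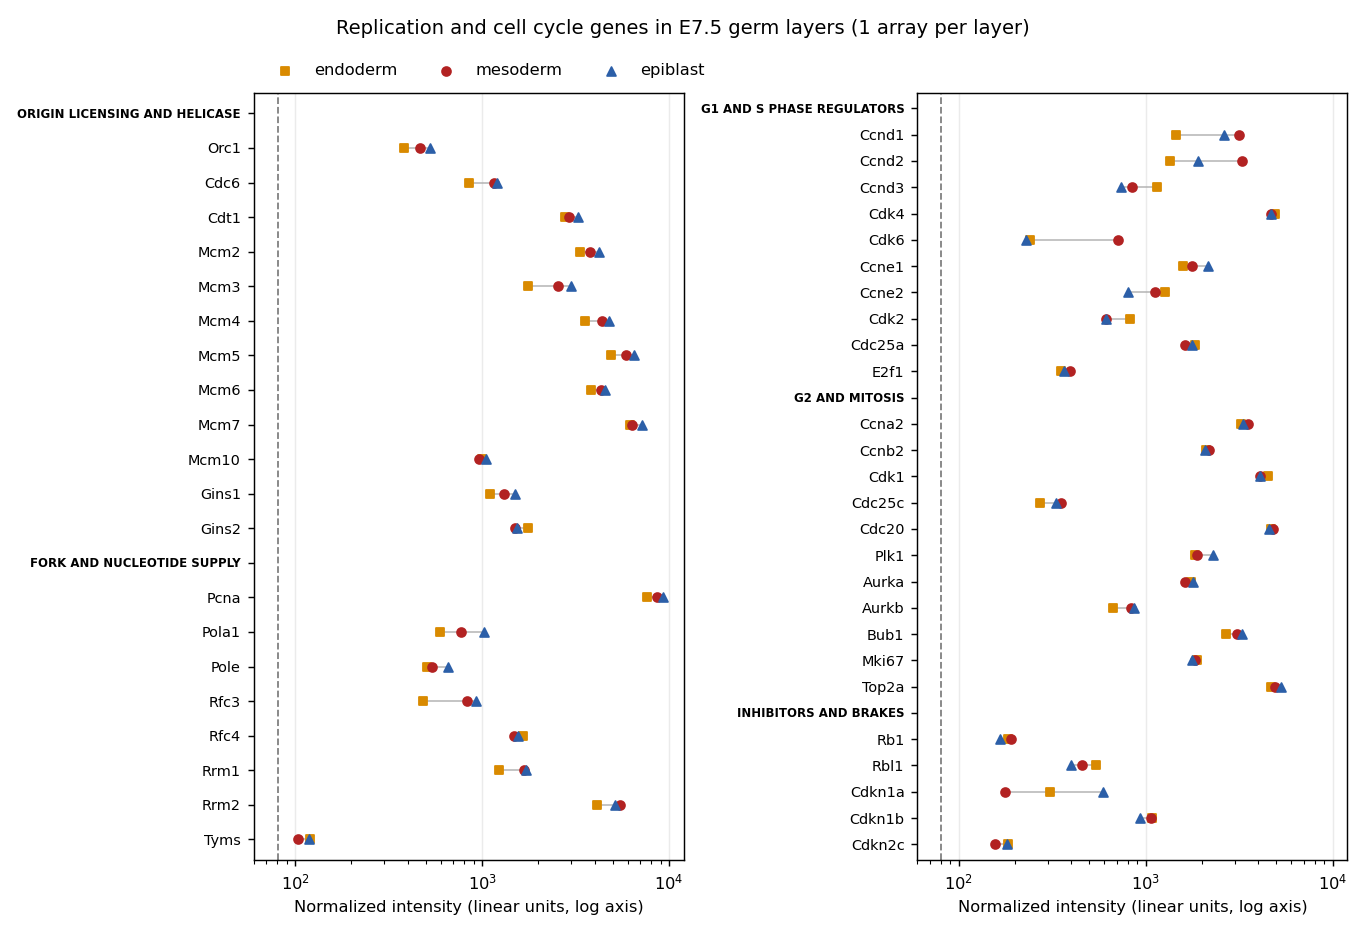
Normalised intensity (linear units on a log axis) of the 46 genes with a probe set, by role, with 1 point for each layer's single array and a dashed line at the floor of 80.6. Points of the licensing and helicase genes mostly run from endoderm through mesoderm to epiblast, those of the mitotic genes lie close together, and Ccnd1, Ccnd2, Cdk6 and Cdkn1a have the widest ranges. Intensities of different genes depend on their probes and are not comparable.

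At 1.5-fold, 2 members were higher in endoderm than in epiblast (Ccnd3 and Ccne2) and 5 were lower (Mcm3, Pola1, Rfc3, Ccnd1 and Cdkn1a), against 22.1% and 9.07% of all genes. For mesoderm against epiblast, 2 were higher (Ccnd2 and Cdk6) and 1 was lower (Cdkn1a), against 6.86% and 6.27%. For endoderm against mesoderm, 1 was higher (Cdkn1a) and 4 were lower (Rfc3, Ccnd1, Ccnd2 and Cdk6), against 20.7% and 8.01%. By any amount, 29 of 46 members were lower in endoderm than in epiblast (45.2% of all genes), 29 were lower in mesoderm than in epiblast (53.6%), and 30 were lower in endoderm than in mesoderm (42.4%). The epiblast array enters both of the first comparisons and the mesoderm array both of the last ones, so these counts are not independent.

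The only measure of error in these data was the spread between probe sets of a gene, which includes real differences between transcript ends and is no replicate error. Over 31 members with several probe sets above the floor (81 probe sets), the pooled SD of the log2 difference was 0.22 for endoderm minus epiblast, 0.11 for mesoderm minus epiblast and 0.19 for endoderm minus mesoderm. Over 5536 genes of the whole array it was 0.40, 0.27 and 0.39.

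Most genes of DNA replication were lowest in endoderm and highest in epiblast, by small amounts. Of the 20 replication genes, 15 had the order endoderm below mesoderm below epiblast, which 22.5% of all genes above the floor had, and the same order held for 30 of their 41 probe sets above the floor. In endoderm 17 of 20 were lower than in epiblast, with a median log2 difference of -0.35. In mesoderm 19 of 20 were lower than in epiblast, with a median of -0.15, and 16 of 20 were lower in endoderm than in mesoderm, with a median of -0.22. The medians over all genes above the floor were 0.05, -0.02 and 0.08. The median range of a replication gene over the 3 layers was 1.30-fold, against 1.35-fold for all genes. The differences were thus small and mostly in 1 order. Among 10 housekeeping genes 4 had this order too, and their median for endoderm minus epiblast was -0.08. In endoderm 6 of the 10 were lower than in epiblast, among them Hprt (-0.63) and Tbp (-0.55), and 4 were higher. The endoderm array held more bright values, and whether this bears on the order was not tested. Relative to the all-gene median, the licensing and fork medians for endoderm minus epiblast lay between -0.55 and -0.35 in each of 12 settings. Not all settings could move these values. Housekeeping centring shifts all genes of an array alike, and a floor at the 25th percentile left the group medians as they were. The step between mesoderm and epiblast depended on the scaling: with arrays centred on the median of 10 housekeeping genes, 12 of 20 were lower in mesoderm than in epiblast and 11 of 20 had the order, against 13.4% of all genes under that scaling, while 16 of 20 were still lower in endoderm than in epiblast and 16 of 20 lower in endoderm than in mesoderm.

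Promoter sequence is shown for the 4 replication genes with the lowest endoderm minus epiblast difference among those that held a match before their start site, a choice made after the values were seen. Windows from 250 bases before to 50 after the start site, from RefSeq on GRCm38.p6, were found for 35 of the 46 members, and were searched on both strands for the E2F words TTTGGCGC, TTTGCCGC, TTTCGCGC and TTTCCCGC, which can overlap each other on opposite strands and were counted once per gene. The stretches of 60 bases below lie at chr5:151651209-151651268 (minus strand), chrX:93632260-93632319 (minus strand), chr11:98907987-98908046 (plus strand) and chr4:108579394-108579453 (plus strand), and capitals mark an E2F word read on either strand.
Rfc3: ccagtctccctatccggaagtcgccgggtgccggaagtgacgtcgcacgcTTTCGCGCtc
Pola1: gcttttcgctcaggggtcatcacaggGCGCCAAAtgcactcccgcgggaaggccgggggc
Cdc6: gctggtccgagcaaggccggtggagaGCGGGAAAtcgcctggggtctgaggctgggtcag
Orc1: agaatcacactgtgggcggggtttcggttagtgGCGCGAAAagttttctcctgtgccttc
An E2F word stood in 7 of 9 licensing and helicase genes (77.8%) and in 2 of 7 fork and nucleotide genes (28.6%), against 550 of 14452 genes on the array with a window (3.81%). A match is a description of the sequence and not a bound site.

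Among the licensing and helicase genes, 10 of 12 had the order endoderm below mesoderm below epiblast, with median log2 differences of -0.38 for endoderm minus epiblast, -0.15 for mesoderm minus epiblast and -0.22 for endoderm minus mesoderm. Orc1, the largest subunit of the origin recognition complex, stood at 382 in endoderm, 466 in mesoderm and 529 in epiblast. Cdc6, the ATPase that helps to load the Mcm ring, had 854 in endoderm, 1157 in mesoderm and 1202 in epiblast, so that endoderm was 1.41-fold below epiblast while mesoderm lay within 1.04-fold of it (a log2 difference of -0.05, and 0.07 with housekeeping centring). Cdt1, its loading partner, stood at 2777, 2932 and 3239 in the same layers. These 3 loading factors shared the order, and Cdt1 had the smallest difference between endoderm and epiblast (1.17-fold).

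The 6 subunits of the Mcm ring all had this order by their brightest probe sets. For Mcm6 the log2 difference of mesoderm from epiblast was only -0.07 and turned to 0.06 with housekeeping centring, and a second probe set, at 1724 in endoderm, 2379.7 in mesoderm and 2205 in epiblast, was highest in mesoderm. The dimmest probe set of Mcm5 had 208 in endoderm and 207 in mesoderm, against 263 in epiblast. Mcm3 differed most, with 1764 in endoderm, 2556 in mesoderm and 2992 in epiblast. Its endoderm value was 1.70-fold below epiblast (log2 difference -0.76) and 1.45-fold below mesoderm, and all 5 of its probe sets had the same order, with log2 differences between endoderm and epiblast of -1.13 to -0.50. Mcm4 had 3550.1, 4356 and 4769 in endoderm, mesoderm and epiblast, and Mcm5 had 4863, 5871 and 6503. Both were thus about 1.34-fold lower in endoderm than in epiblast. Mcm2 stood at 3351, 3772 and 4236, Mcm6 at 3802, 4343 and 4543, and Mcm7 at 6181, 6322 and 7142. For Mcm7 the log2 difference of endoderm from epiblast was -0.21, about the size of the spread between probe sets, yet it was negative in 4 of 4 probe sets.

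The activators of the ring were less uniform. Gins1, a subunit of the GINS complex, stood at 1103 in endoderm, 1312 in mesoderm and 1505 in epiblast, 1.36-fold lower in endoderm than in epiblast. Gins2, another subunit of the same complex, was the only licensing and helicase gene with a higher value in endoderm than in epiblast, at 1751 in endoderm, 1498 in mesoderm and 1542 in epiblast. Both of its probe sets had this sign. Mcm10, which joins the helicase to polymerase alpha, had 999.7, 962 and 1044, a range of 1.09-fold. With quantile normalisation the values of Gins2 in endoderm and epiblast turned to a log2 difference of -0.08, against 0.18 as deposited.

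Fork and nucleotide genes had medians of -0.34 for endoderm minus epiblast, -0.14 for mesoderm minus epiblast and -0.28 for endoderm minus mesoderm, and 5 of 8 had the order endoderm below mesoderm below epiblast. Rfc3, a subunit of the clamp loader, had the lowest value of all replication genes relative to epiblast. It stood at 483 in endoderm, 826 in mesoderm and 928 in epiblast, 1.92-fold lower in endoderm than in epiblast and 1.71-fold lower than in mesoderm. Its second probe set had 359, 493 and 535. Rfc4, another subunit of the loader, had 1656 in endoderm, 1484 in mesoderm and 1554 in epiblast by its brighter probe set. Its second probe set had 879.9, 900.1 and 918, which is the order of Rfc3, so the probe sets of Rfc4 disagreed.

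Pola1, the catalytic subunit of the polymerase that starts each DNA strand, stood at 599 in endoderm, 774 in mesoderm and 1028 in epiblast. It was 1.72-fold lower in endoderm and 1.33-fold lower in mesoderm than in epiblast, and it was the replication gene with the lowest mesoderm value relative to epiblast. Pole, the catalytic subunit of the leading strand polymerase, had 510.5, 539 and 655. Pcna, the sliding clamp, had 7574 in endoderm, 8592 in mesoderm and 9236 in epiblast, 1.22-fold lower in endoderm than in epiblast. All 3 had the shared order, and for each it rests on 1 probe set above the floor. With housekeeping centring the log2 difference of Pcna between mesoderm and epiblast turned from negative to 0.02, and with the mean over all probe sets that of Pola1 between endoderm and epiblast was -0.35, against -0.78 for the bright probe set.

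Ribonucleotide reductase makes the deoxynucleotides that replication uses. Its large subunit gene Rrm1 stood at 1236 in endoderm, 1669.7 in mesoderm and 1710.4 in epiblast. Its small subunit gene Rrm2 stood at 4107, 5452 and 5146. Both were lower in endoderm than in the other layers, by 1.25- to 1.38-fold, and the sign held in all of their probe sets above the floor, whereas mesoderm and epiblast lay within 1.06-fold of each other. Tyms, which makes thymidylate, was dim, at 121, 104 and 119, and 1 of its 4 probe sets was above the floor.

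**Figure D2:**
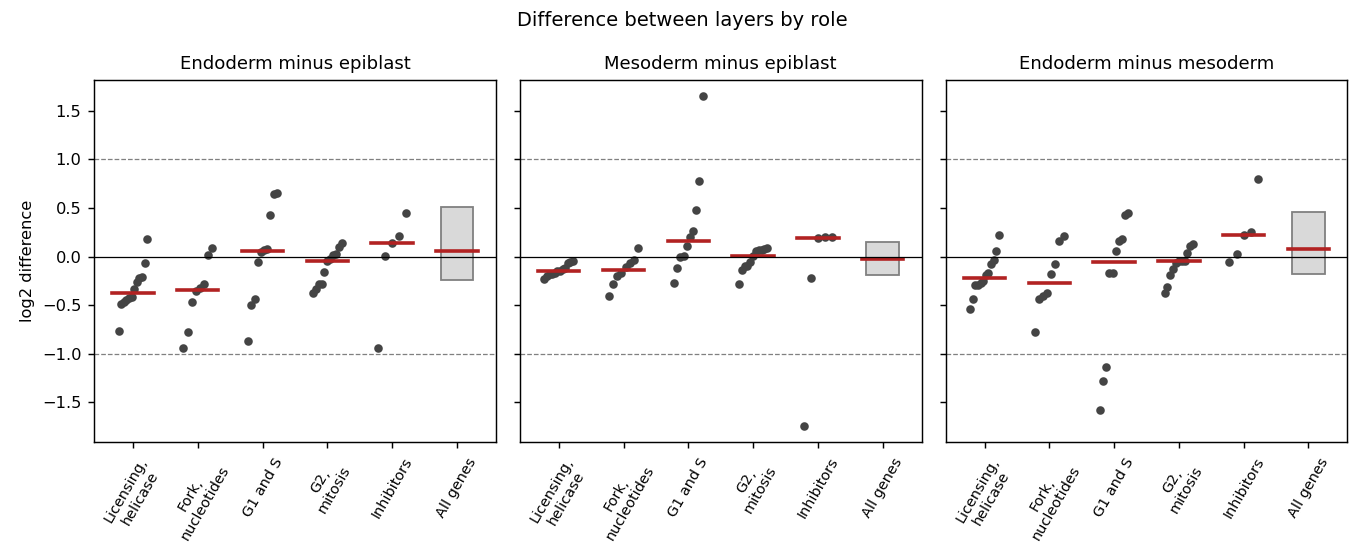
Log2 difference between layers for each member (points) by role, with the group median (red line), and for all genes above the floor the range between the quartiles (grey box) and median. Dashed lines mark 2-fold. Licensing and fork genes have medians of -0.38 and -0.34 for endoderm minus epiblast, while the all-gene median is 0.05 and the mitotic genes have a median of -0.04.

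Further genes of these steps came from lists drawn up beside the members. Of 20 other licensing and helicase genes, 16 were lower in endoderm than in epiblast (median log2 difference -0.28) and 12 had the order endoderm below mesoderm below epiblast. Those with the largest ranges were Clspn, a fork protein needed for checkpoint signalling, at 605 in endoderm, 864 in mesoderm and 979.7 in epiblast, Gins3 at 309, 483 and 457, Timeless at 1051, 1261 and 1522, and Mcm9 at 113, 155 and 166. Of 22 other fork and nucleotide genes, 15 were lower in endoderm than in epiblast (median -0.19) and 10 had the order. Between endoderm and mesoderm these fork genes went both ways, with 10 higher and 12 lower in endoderm (42.4% of all genes were lower) and a median of -0.05. Of the 22, 8 were lowest in mesoderm, as were 3992 of all 12785 genes above the floor, which is a similar share. Pold1, the catalytic subunit of polymerase delta, stood at 448 in endoderm, 709 in mesoderm and 816 in epiblast. Dut, which removes dUTP, had 4087, 5139.8 and 5949, Rnaseh2a had 652, 874 and 1024, and Chaf1b, a histone chaperone at the fork, had 419, 430 and 619.6. None of the genes in these lists differed by 2-fold between any pair of layers.

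The G1 and S phase regulators did not share the order of the replication genes. Only Ccne1 among the 10 had it, by 1 of its 2 probe sets. The group medians were 0.06 for endoderm minus epiblast, 0.16 for mesoderm minus epiblast and -0.05 for endoderm minus mesoderm. The first of these turned to -0.17 with quantile normalisation and to -0.07 with the mean of all probe sets. Differences were large for single genes, and 3 of the 4 members with a range of at least 2-fold belonged here. Of the 3 D cyclins, Ccnd1 and Ccnd2 had an order in common and Ccnd3 had another.

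Ccnd1, which encodes cyclin D1, had 1446 in endoderm, 3171 in mesoderm and 2639.9 in epiblast. Endoderm was 2.19-fold below mesoderm and 1.83-fold below epiblast, and mesoderm was 1.20-fold above epiblast, with the same signs in 3 of 3 probe sets. Ccnd2, which encodes cyclin D2, stood at 1355 in endoderm, 3290.1 in mesoderm and 1914 in epiblast. Mesoderm was 1.72-fold above epiblast and endoderm was 2.43-fold below mesoderm. All 7 probe sets of Ccnd2 had this order, with log2 differences of 0.69 to 0.94 for mesoderm minus epiblast and -1.45 to -1.22 for endoderm minus mesoderm. Both genes were thus lowest in endoderm and highest in mesoderm.

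Ccnd3, which encodes cyclin D3, ran the other way, at 1154 in endoderm, 849 in mesoderm and 738 in epiblast. Its other 2 probe sets, which were near the floor at 62.1 to 86.2, had the opposite order, so the direction rests on 1 probe set. Cdk6, a kinase partner of the D cyclins, had 240.1 in endoderm, 716 in mesoderm and 228 in epiblast. Mesoderm was 3.14-fold above epiblast and endoderm was 2.98-fold below mesoderm, while endoderm and epiblast lay within 1.05-fold. The second probe set above the floor had 235, 596 and 249, which gives the same peak in mesoderm. Cdk4, the other kinase partner, was level within 1.05-fold, at 4914, 4707 and 4687.

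Of the E cyclins, which act with Cdk2 at the start of S phase, Ccne1 stood at 1585 in endoderm, 1777 in mesoderm and 2150.0 in epiblast, while Ccne2 stood at 1268, 1119 and 804. Ccne1 was 1.36-fold lower in endoderm than in epiblast and Ccne2 was 1.58-fold higher, so the paired genes had opposite orders by these probe sets. Ccne2 had 1 probe set, and both probe sets of Ccne1 were lower in endoderm than in epiblast. The second one of Ccne1 was level between endoderm (1477) and mesoderm (1471), so the step between these layers rests on 1 probe set. Cdk2 had 825 in endoderm, 612 in mesoderm and 615 in epiblast. Cdc25a, the phosphatase that activates Cdk2, had 1825, 1629 and 1761, and E2f1, a transcription factor of S phase genes, had 352, 395 and 365. By their brightest probe sets, Cdc25a and E2f1 thus lay within 1.12-fold over the layers. Other probe sets had wider ranges, at 172, 236 and 209 for E2f1 and at 63.8, 95.3 and 99.97 for a dim one of Cdc25a.

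**Figure D3:**
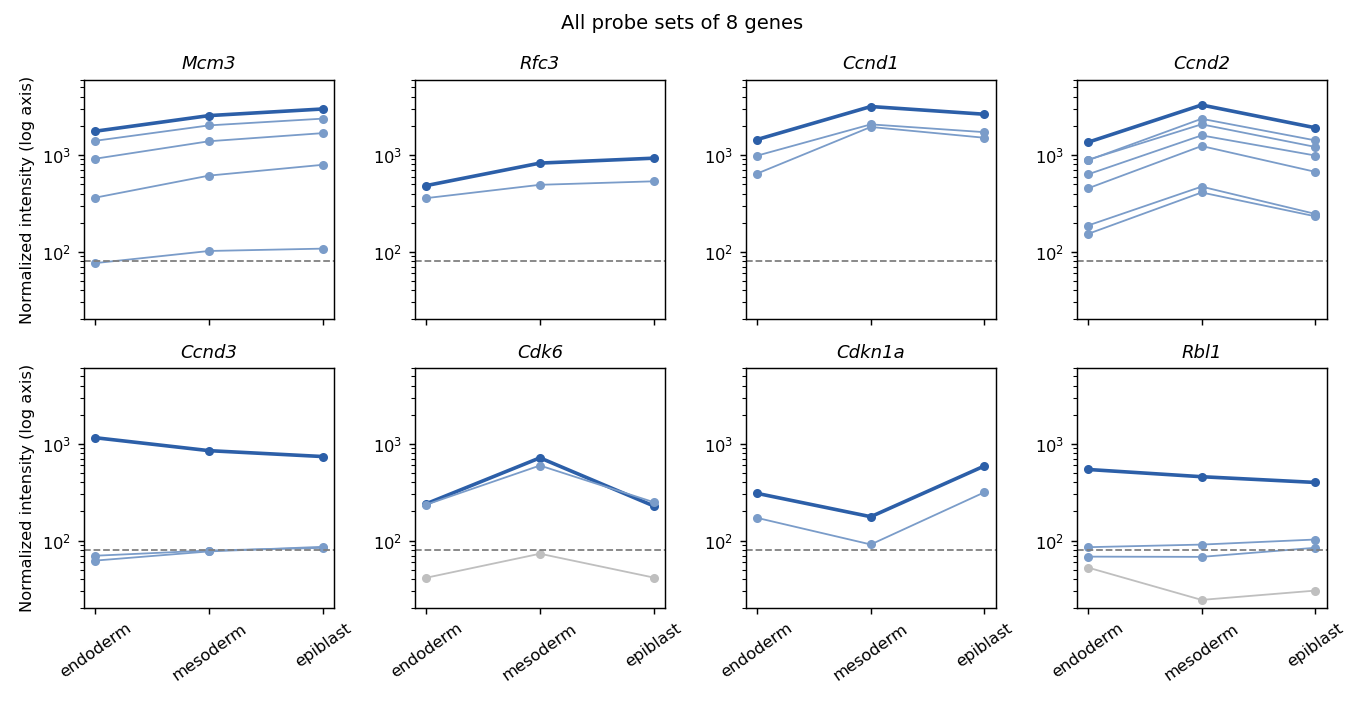
Normalised intensity (log axis) of every probe set of 8 genes in endoderm, mesoderm and epiblast, 1 array each. The thick line is the probe set that stands for the gene, thin blue lines are other probe sets above the floor (dashed line, 80.6) in at least 1 layer, and grey lines are those below it in all layers. The lines of Mcm3, Rfc3, Ccnd1, Ccnd2 and Cdkn1a run in parallel. Between endoderm and epiblast, the dim probe sets of Ccnd3 and the thin blue ones of Rbl1 run against the bright one. The grey line of Rbl1 is higher in endoderm than in epiblast, as the bright one is.

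Genes of G2 and mitosis had small ranges over the layers by their brightest probe sets. Their median log2 differences were -0.04 for endoderm minus epiblast, 0.00 for mesoderm minus epiblast and -0.05 for endoderm minus mesoderm, the values for endoderm minus epiblast ran from -0.38 to 0.14, and the median range over the layers was 1.10-fold, against 1.35-fold for all genes. The order endoderm below mesoderm below epiblast was found in 4 of 11. Over all 18 probe sets above the floor the medians were -0.15 for endoderm minus epiblast (13 of 18 lower) and -0.15 for endoderm minus mesoderm (15 of 18 lower). The gene medians for these comparisons were -0.29 and -0.29 with quantile normalisation and -0.14 and -0.14 with cyclic loess. The difference between the medians of the replication and mitotic genes was not tested.

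Cdk1, the kinase of mitotic entry, had 4486 in endoderm, 4089 in mesoderm and 4082 in epiblast. Its cyclin partners stood at 3233, 3523 and 3328 (Ccna2) and at 2112, 2179 and 2088 (Ccnb2). Cdc20, an activator of the anaphase promoting complex, had 4682, 4820.2 and 4593, and Mki67, the proliferation antigen Ki-67, had 1888, 1847 and 1765. All 5 lay within 1.10-fold over the layers, less than the spread between probe sets for any comparison with endoderm. Top2a, the topoisomerase that untangles sister chromatids, had 4703, 4923 and 5262, and Aurka, a centrosome kinase, had 1747, 1616 and 1781.

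By their brightest probe sets, the order of the replication genes was found in Top2a and, with larger differences, in 3 mitotic kinases. Aurkb, of the chromosomal passenger complex, stood at 667 in endoderm, 830.4 in mesoderm and 866 in epiblast. Plk1, the polo-like kinase, had 1830.4, 1889 and 2303, and Bub1, of the spindle checkpoint, had 2698, 3079 and 3286. Endoderm was thus 1.30-, 1.26- and 1.22-fold lower than epiblast for these genes. Cdc25c, a phosphatase that activates Cdk1, was lowest in endoderm, at 274, 354 and 332. With housekeeping centring the log2 differences of mesoderm from epiblast turned to 0.06 for Aurkb, 0.03 for Bub1 and 0.03 for Top2a, from negative values as deposited.

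For comparison with the replication promoters, sequence is shown for the 4 mitotic genes whose nearest match before the start site to the cell cycle genes homology region (CHR, the word TTTGAA, searched on both strands) lay closest to it. The CHR is known as a binding element of the DREAM complex in genes of G2 and mitosis. The 60 bases lie at chr10:69352913-69352972 (minus strand), chr4:118437344-118437403 (minus strand), chr11:99024190-99024249 (minus strand) and chr7:135716445-135716504 (minus strand) of GRCm38.p6 from RefSeq, and capitals mark the CHR word.
Cdk1: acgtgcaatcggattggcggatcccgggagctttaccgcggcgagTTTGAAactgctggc
Cdc20: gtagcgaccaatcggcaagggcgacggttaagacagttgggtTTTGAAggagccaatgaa
Top2a: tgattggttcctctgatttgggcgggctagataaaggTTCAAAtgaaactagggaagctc
Mki67: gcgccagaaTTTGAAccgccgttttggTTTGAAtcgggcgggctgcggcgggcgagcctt
A CHR word stood in 7 of 8 mitotic genes with a window (87.5%), in 1 of 16 replication genes and in 2263 of 14452 genes on the array (15.7%). An E2F word was found in 1 of the 8 mitotic genes, Cdk1. The word CCAAT, searched on both strands, stood in 8 of the 8, in 12 of the 16 and in 42.0% of all genes. E2F words were found in 2 of 7 G1 and S phase genes and in 1 of 4 inhibitors with a window, and no CHR word in either group.

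**Figure D4:**
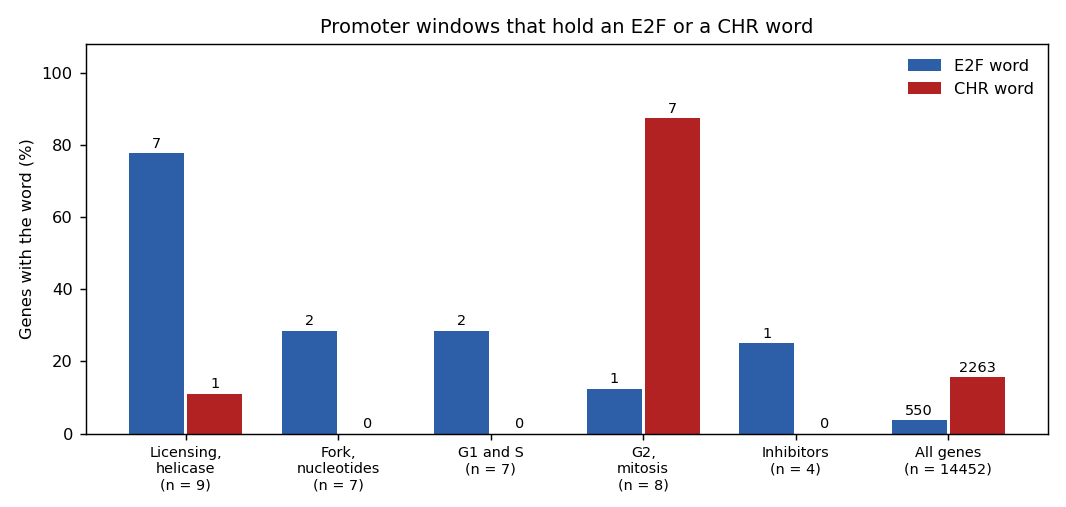
Percent of genes whose promoter window (250 bases before to 50 after the start site) holds at least 1 E2F word (blue) or CHR word (red), by role, with the number of such genes above each bar and the number with a window under the axis. The E2F bar stands at 77.8% for licensing and helicase genes and the CHR bar at 87.5% for mitotic genes, against 3.81% and 15.7% of all genes.

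The wider list of 40 further mitotic genes went both ways, with medians of -0.05 for endoderm minus epiblast, -0.01 for mesoderm minus epiblast and -0.06 for endoderm minus mesoderm. Its members lower in endoderm than in epiblast numbered 21 of 40, the values ran from -0.77 to 0.53 with quartiles of -0.20 and 0.17, and none differed by 2-fold between any pair of layers. The largest ranges were those of Ncapd2, a condensin subunit, at 1022 in endoderm, 1577 in mesoderm and 1743 in epiblast, Nek2, a centrosome kinase, at 1734, 1082 and 1197, Ndc80, a kinetochore protein, at 569, 679 and 474, and Wee1, the kinase that holds Cdk1 inactive, at 2364, 1651 and 1929. Of these, Nek2 and Wee1 were highest in endoderm, Ndc80 in mesoderm and Ncapd2 in epiblast.

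Among the inhibitors and brakes, Cdkn1a had the widest range of all members. It encodes p21, an inhibitor of cyclin-dependent kinases and a target of p53. Cdkn1a stood at 307 in endoderm, 176 in mesoderm and 590.0 in epiblast, 3.35-fold lower in mesoderm than in epiblast (log2 difference -1.74) and 1.92-fold lower in endoderm than in epiblast. Endoderm was 1.74-fold above mesoderm. Its second probe set had 171, 91.1 and 315, with log2 differences of -1.79 for mesoderm minus epiblast and -0.88 for endoderm minus epiblast. The inhibitor was thus highest in the layer where most replication genes were highest, and lowest in mesoderm.

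The other inhibitors differed little. Cdkn1b, which encodes p27, had 1082 in endoderm, 1066 in mesoderm and 932 in epiblast, whereas its dim second probe set was lowest in endoderm. Cdkn2c, which encodes the Cdk4 and Cdk6 inhibitor p18, had 183, 156 and 182. The retinoblastoma gene Rb1 had 184, 191 and 167. Its relative Rbl1, which encodes p107, had 543, 457 and 399, but 2 further probe sets near the floor were lower in endoderm than in epiblast, so its direction was not settled. The group medians of 0.14 for endoderm minus epiblast and 0.19 for mesoderm minus epiblast depended on the processing, as the first turned to -0.08 with quantile normalisation and the second to -0.18 with the mean of all probe sets.

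Single genes with larger differences were found among 16 further inhibitors and p53 target genes. In endoderm 3 of 16 were at least 2-fold higher than in epiblast, against 12.6% of all genes, and 3 of 16 than in mesoderm, against 11.7%, so that these counts were near the shares over all genes. None was 2-fold lower in endoderm. Cdkn1c, which encodes the imprinted inhibitor p57, stood at 3486 in endoderm, 2912 in mesoderm and 498 in epiblast, so that endoderm exceeded epiblast 7.0-fold and mesoderm exceeded it 5.84-fold. Cdkn2a, the locus of p16Ink4a and p19Arf, had 502 in endoderm, against 20.7 in mesoderm and 36.4 in epiblast, which were both below the floor, so that endoderm was at least 6.23-fold higher than either. Perp, a p53 target and desmosome component, had 559.5 in endoderm, 101 in mesoderm and 111 in epiblast. Ccng1, another p53 target, had 971, 435 and 605, 2.23-fold higher in endoderm than in mesoderm. All 3 of its probe sets were higher in endoderm than in mesoderm, and 2 of 3 were higher in endoderm than in epiblast. Of the 16 genes, 10 were highest in endoderm, 2 in mesoderm and 4 in epiblast. Endoderm was also the most frequent peak among all 12785 genes above the floor, with 6006 of them. Another 4161 of these genes peaked on the epiblast array and 2618 on the mesoderm array. Gadd45a, a stress-induced gene, had the same order as Cdkn1a, at 153 in endoderm, 127 in mesoderm and 232 in epiblast. So had Bbc3, which encodes the pro-apoptotic protein Puma, at 116, 98.3 and 155, and Aen, an exonuclease gene, at 744, 639 and 795. For Aen, 2 of 3 probe sets above the floor were higher in endoderm than in mesoderm. These 3 genes were named after their values were seen, and Gadd45a and Bbc3 had 1 probe set each. Most of the 16 genes did not share the order of Cdkn1a. Mdm2 (935, 595.5 and 626), Btg2 (286, 176 and 174) and Sesn2 (309, 199 and 252) were highest in endoderm.

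**Figure D5:**
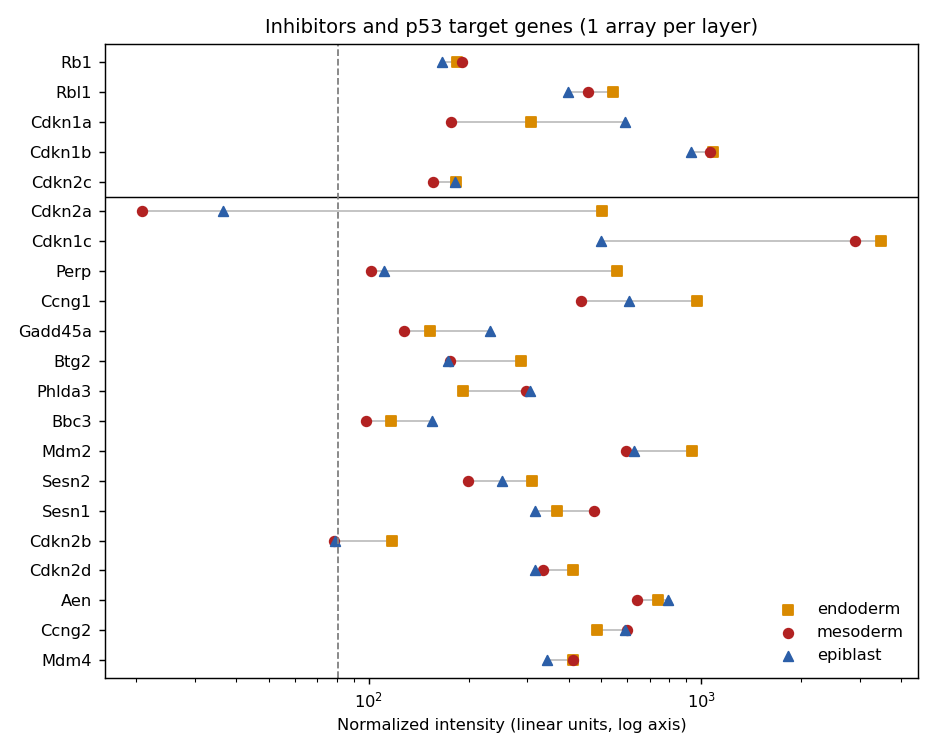
Normalised intensity (linear units on a log axis) of 5 member inhibitors and brakes (above the line) and 16 further inhibitors and p53 target genes, with 1 point per layer and a dashed line at the floor of 80.6. Cdkn1a is highest in epiblast at 590.0, Cdkn1c is lowest in epiblast at 498, and Cdkn2a and Perp are highest in endoderm.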

How the data were processed

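Total RNA of each dissected layer was labelled with biotin and hybridised to 1 array per layer. Per the labels and the methods, the authors processed the arrays by Robust Multiarray Average (RMA). The deposited values were intensities on a linear scale, of which 22, 32 and 34 stood at exactly 1 on the endoderm, mesoderm and epiblast arrays. No source at hand says which step gave this scale, and the values were taken as they were. Significance Analysis of Microarrays, which the methods name, needs replicates, and no p-values are given. Precision is limited by having 1 array per layer.

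Of 45037 probe sets, 34945 had 1 gene symbol in the platform annotation, 932 had several and 9160 had none there, and only the first were used. An Entrez identifier was found in the RefSeq gene table for 34741 of these and altered 0 symbols. Of the members, 37 had several probe sets and 9 had 1, and 10 were represented by a probe set of the types whose probes can match several transcripts. Differences between layers were taken on the log2 scale, and a gene with several probe sets was represented by the one of highest mean log2. A gene was tested for a pair where the higher layer was above the floor, which 12626 genes were for endoderm and epiblast, 12338 for mesoderm and epiblast, and 12426 for endoderm and mesoderm. The calling step was run on simulated data with little noise, in which changes larger than the 2-fold limit were planted in bright genes. That run checked the code and does not bear on the precision of these arrays or on smaller differences. The members and gene lists were chosen with earlier results of these data known. All members are named, and of each list of further genes the 4 with the largest range. Some further inhibitor and p53 target genes were named after their values were seen. Alternatives covered the probe set, the floor (25th and 75th percentile), a pseudocount of 16, quantile and cyclic loess normalisation, housekeeping centring and fold limits of 1.5 and 3. Python 3.11.15, pandas 2.3.3, numpy 2.4.6, R 4.3.3 and limma 3.58.1 were used.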

Additional observations from a re-analysis of the deposited data

How the results depend on the processing

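No paired analysis was possible because each layer had 1 array, and for the same reason no replicate could be left out. Alternatives without probe sets that can match several transcripts, and all those for the replication counts, were chosen after seeing the data. Of 78 alternative counts of members called, 71 lay within 1.5 times the reported one. Much of this was fixed in advance. All 46 genes were above the floor in all 3 layers, so settings that lowered the floor or raised dim values to it could not change a count. The reported counts were also small, from 0 to 3. At 1.5-fold, 2 members were higher and 5 lower in endoderm than in epiblast, 2 higher in mesoderm than in epiblast and 1 higher in endoderm than in mesoderm, and at 3-fold 0 were lower in endoderm than in mesoderm. Against 0 as reported, the members 2-fold lower in endoderm than in epiblast were 5 with quantile normalisation (Mcm3, Pola1, Rfc3, Ccnd1 and Cdkn1a) and 2 with cyclic loess (Rfc3 and Cdkn1a). Over all genes, quantile normalisation moved the calls for endoderm against epiblast to 9.67% higher and 5.32% lower (reported 12.6% and 3.98%) and for endoderm against mesoderm to 9.28% and 4.77% (reported 11.7% and 3.91%).

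The median of all genes shifted by -0.17 (endoderm minus epiblast) and -0.16 (endoderm minus mesoderm) on the log2 scale with quantile normalisation, by 0.12 and 0.13 for endoderm and mesoderm minus epiblast with housekeeping centring, and by 0.12 for endoderm minus epiblast with the 75th percentile as the floor. With quantile normalisation the medians for endoderm minus epiblast were -0.55 (licensing and helicase), -0.58 (fork and nucleotide), -0.17 (G1 and S), -0.29 (mitosis) and -0.079 (inhibitors), and those for endoderm minus mesoderm were -0.40, -0.45, -0.23, -0.29 and 0.032. With housekeeping centring the medians for mesoderm minus epiblast were -0.023, -0.014, 0.28, 0.13 and 0.32, the licensing median for endoderm minus epiblast was -0.26, and 12 of 20 replication genes were lower in mesoderm than in epiblast. With the mean over probe sets, the G1 and S median for endoderm minus epiblast was -0.068 and the inhibitor median for mesoderm minus epiblast reversed to -0.18. Among single genes that setting moved Ccnd3 to -0.03 and Pola1 to -0.35 for endoderm minus epiblast and Cdk6 to 1.24 for mesoderm minus epiblast. Relative to the all-gene median of the same setting, the licensing median for endoderm minus epiblast ran from -0.55 to -0.38 and the fork median from -0.53 to -0.35 over 12 settings, and for mesoderm minus epiblast from -0.16 to -0.11 and from -0.12 to -0.10. Housekeeping centring shifts all genes of an array alike, so it could hardly move these relative values, although it moved the medians themselves. Causes of the shifts between settings were not tested.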

Other observations

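Checkpoint and repair genes outside the members were mostly lower in endoderm. Of 11 such genes, 10 were lower in endoderm than in epiblast (45.2% of all genes), with a median log2 difference of -0.35. By at least 1.5-fold 5 were lower (9.07% of all genes) and by 2-fold none (3.98%), and 8 had the order endoderm below mesoderm below epiblast (22.5%). Msh6, a subunit of the mismatch recognition complex, stood at 1174 in endoderm, 1567 in mesoderm and 2329 in epiblast, 1.98-fold lower in endoderm than in epiblast. Brca2, which acts in repair by homologous recombination, had 451, 676 and 792 in endoderm, mesoderm and epiblast, and Fancd2, of the Fanconi anaemia pathway, had 186, 238 and 294. For Fancd2, 2 of 3 probe sets above the floor were lower in endoderm than in epiblast. Atm, the kinase that responds to DNA breaks, had 401 in endoderm, 665 in mesoderm and 679 in epiblast.

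Among 14 further E2F and DREAM factors, 7 were lower and 7 higher in endoderm than in epiblast, with a median of 0.07. The E2F partner Tfdp2 had 530.1, 823 and 859.9 in endoderm, mesoderm and epiblast. Lin54, the DNA-binding subunit of DREAM, had 834, 531 and 531. Its second probe set had log2 differences of -0.28 for endoderm minus epiblast and -0.32 for endoderm minus mesoderm, so its direction was not settled. The values of E2f5 were 1342, 2037 and 1462, and E2f2 had 127, 115 and 172. For E2f5, 2 of 3 probe sets were higher in mesoderm than in epiblast. These genes thus shared no order.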
